A study of Mus musculus with 6 samples.

Results

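The ileal bile acid genes were examined as a set of 8 genes, Fabp6, Slc10a2, Slc51a, Slc51b, Nr1h4, Fgf15, Nr0b2 and Gpbar1, chosen by name for their place in the ileal bile acid circuit. The choice was made with earlier results of these data known. They are 8 of the 38561 genes counted in each library, and 7 of them were among the 16425 genes with enough reads to test. Nr0b2 did not reach that level. The RNA came from small intestinal mucosa of C57BL/6J mice aged 8 to 12 weeks. It was sequenced as 6 pools, each holding RNA of 3 mice of both sexes, with 3 pools labelled Rbm47-IKO and 3 labelled wt. Rbm47-IKO mice lack the RNA-binding protein RBM47 in the gut epithelium through a constitutive Cre recombinase driven by the villin (Vil1) promoter, which acts along the small and large intestine. Per the study's methods the controls were floxed Rbm47 fl/fl mice, whereas the labels call them wt. The study's text places the RNA in the jejunum, and the labels say only small intestine. The age and the number of mice per pool given here are those of the labels, and the study's methods give a wider range for both. Pools are separate groups of mice, and a p-value here measures the spread between pools.

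Bile acids made in the liver return to it mainly from the end of the small intestine, the ileum. There SLC10A2 carries them from the gut lumen into the enterocyte, FABP6 binds them in the cytosol, and the SLC51A and SLC51B subunits together export them toward the portal blood. Inside the cell bile acids activate the nuclear receptor FXR (encoded by Nr1h4), whose known ileal targets include Fabp6, the 2 exporter subunits, the hormone Fgf15 and the corepressor Nr0b2, while GPBAR1 is a bile acid receptor at the cell surface. FGF15 travels to the liver and lowers bile acid synthesis. In mice Fabp6, Slc10a2 and Fgf15 are known as markers of the distal small intestine, so their level in a mucosal sample also depends on how much ileum the sample holds.

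The targeted gene was read first, as a check of the labels. Rbm47 had 602.7, 624.6 and 619.8 CPM (read counts scaled to the depth of the pool, corrected by TMM factors) in the pools labelled Rbm47-IKO and 459.8, 449.9 and 472.1 in the wt pools. The pools labelled Rbm47-IKO were therefore not lower (log2 fold change 0.42, SE 0.10, edgeR adjusted p = 0.0751), and they are called labelled Rbm47-IKO throughout. The tables give 1 count for the whole gene, so reads from the deleted part could not be separated from the rest. Total counts ran from 31560320 to 38951830 per pool. The summed level of 6 smooth muscle genes differed far more within a genotype than between them, at 360.9, 585.7 and 3302 CPM in labelled Rbm47-IKO pools 1, 2 and 3 and at 90.7, 2803 and 313.1 CPM in wt pools 1, 2 and 3. The edgeR quasi-likelihood test called 443 genes at the threshold used throughout, an adjusted p (Benjamini-Hochberg) of at most 0.05, and 238 of them were higher in the pools labelled Rbm47-IKO. That count rested on single pools, being 0 without labelled Rbm47-IKO pool 2, 11 without wt pool 3, 32 without labelled Rbm47-IKO pool 1 and 119 without labelled Rbm47-IKO pool 3.

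The promoters of 4 genes are shown because they belong to the transport steps on which the results turn. The sequences are from RefSeq on the mouse build GRCm38.p6, all on the minus strand, and run 5′ to 3′ from 250 bases before the annotated start to 50 after it. An entry was matched for 7 of the 8 genes, with Fgf15 unmatched. Capitals mark matches, with at most 2 mismatches on either strand, to 1 of 2 palindromes that did not overlap each other in these windows. The first is the inverted repeat IR-1 bound by FXR (AGGTCA, 1 free base, TGACCT), and the second is the site of the enterocyte factor HNF1 (GTTAAT, 1 free base, ATTAAC). The windows lie at chr11:43601513-43601812 for Fabp6, chr8:5105238-5105537 for Slc10a2, chr16:32487830-32488129 for Slc51a and chr9:65422724-65423023 for Slc51b.
Fabp6: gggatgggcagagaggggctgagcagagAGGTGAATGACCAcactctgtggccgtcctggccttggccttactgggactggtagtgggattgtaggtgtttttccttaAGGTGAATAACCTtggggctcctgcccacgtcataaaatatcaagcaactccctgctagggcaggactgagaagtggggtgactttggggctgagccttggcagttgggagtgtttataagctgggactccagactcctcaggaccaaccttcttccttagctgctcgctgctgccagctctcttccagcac
Slc10a2: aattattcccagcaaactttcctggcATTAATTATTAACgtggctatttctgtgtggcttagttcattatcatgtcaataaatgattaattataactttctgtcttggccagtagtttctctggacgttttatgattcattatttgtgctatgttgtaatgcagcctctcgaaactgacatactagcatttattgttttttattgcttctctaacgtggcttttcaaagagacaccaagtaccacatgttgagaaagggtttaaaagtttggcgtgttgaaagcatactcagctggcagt
Slc51a: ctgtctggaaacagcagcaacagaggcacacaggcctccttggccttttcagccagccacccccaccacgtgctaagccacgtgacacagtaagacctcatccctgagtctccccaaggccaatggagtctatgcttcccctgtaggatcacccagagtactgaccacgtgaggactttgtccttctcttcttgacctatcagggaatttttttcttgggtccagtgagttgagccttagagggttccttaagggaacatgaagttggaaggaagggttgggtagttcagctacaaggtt
Slc51b: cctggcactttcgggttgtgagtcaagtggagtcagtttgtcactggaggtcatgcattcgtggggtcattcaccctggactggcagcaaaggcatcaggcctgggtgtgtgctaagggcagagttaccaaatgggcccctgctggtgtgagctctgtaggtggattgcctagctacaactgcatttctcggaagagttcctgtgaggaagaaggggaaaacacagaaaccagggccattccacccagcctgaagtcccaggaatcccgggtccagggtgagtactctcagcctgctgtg

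The Fabp6 window held IR-1 matches starting 222 and 142 bases before the start, at chr11:43601772-43601784 and chr11:43601692-43601704, each with 2 mismatches. Of 27025 promoters of the same length, 314 (1.16%) held an IR-1 match with at most 2 mismatches. The Slc10a2 window held 1 HNF1 match with 1 mismatch, 224 bases before the start at chr8:5105499-5105511. Under the looser rule of at most 2 mismatches, 373 promoters (1.38%) held an HNF1 match, and the share at 1 mismatch was not counted. Nr1h4 also held an HNF1 match, with 2 mismatches and 40 bases before the start RefSeq gives, which lies inside the gene as the count tables span it. No match to these letters was found in the windows of Slc51a, Slc51b, Nr0b2 and Gpbar1. A match is a stretch of letters, and binding was not measured in these samples.

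Across the 8 genes the exporter subunits were the most abundant transcripts and the receptor Gpbar1 and corepressor Nr0b2 the least. On a per-length scale (RPKM from the TMM-scaled CPM, mean ± SD, n = 3 pools) Slc51a stood at 175.9 ± 23.0 in wt pools and 269.7 ± 34.7 in pools labelled Rbm47-IKO. Slc51b followed at 93.9 ± 13.6 and 146.5 ± 37.3 RPKM. Slc51a exceeded Slc51b in every pool, with a per-length ratio between 1.65 and 2.16. Fabp6 (16.5 ± 16.9 and 62.7 ± 22.4 RPKM), Nr1h4 (12.5 ± 5.43 and 18.6 ± 1.95) and Slc10a2 (11.2 ± 13.9 and 8.12 ± 2.97) came next. In wt pools these 3 did not differ beyond their spread. In the pools labelled Rbm47-IKO, Fabp6 stood above Nr1h4, and Nr1h4 above Slc10a2, in all 3 pools. Fgf15 (0.558 ± 0.347 and 1.26 ± 0.820 RPKM) and Gpbar1 (0.382 ± 0.161 and 0.340 ± 0.0801) overlapped in wt pools, and Nr0b2 lay below both in every pool.

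**Figure D1:**
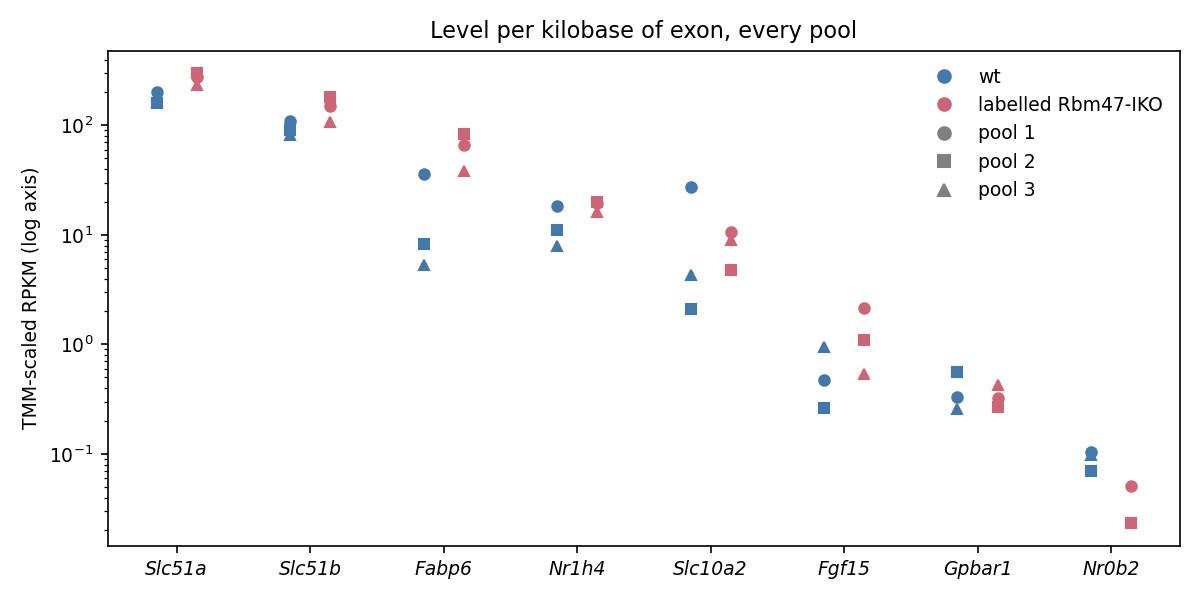
Level of each gene per kilobase of exon (TMM-scaled RPKM, log axis) in every pool, blue for wt and red for labelled Rbm47-IKO, with the marker shape giving the pool number. Slc51a and Slc51b are highest, wt pool 1 stands above the other wt pools for Fabp6 and Slc10a2, and the pool without a read of Nr0b2 (labelled Rbm47-IKO pool 3) cannot be drawn on this axis.

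Among the wt pools the uptake transporter had the widest spread of the 8 genes. Slc10a2 (ENSMUSG00000023073, chr8:5085623-5105232), the apical sodium-dependent bile acid transporter, had 17.2, 7.84 and 14.6 CPM in labelled Rbm47-IKO pools 1, 2 and 3 and 44.3, 3.40 and 7.05 CPM in wt pools 1, 2 and 3. One wt pool was thus the highest and another wt pool the lowest of all 6, with the labelled Rbm47-IKO pools between them. The counts behind these values were 297 to 596 in labelled Rbm47-IKO pools and 129 to 1508 in wt pools, so counting error was small beside the spread. The log2 fold change was -0.47 (SE 0.84, 95% interval -2.42 to 1.49, edgeR adjusted p = 0.864), a range that holds both a large decrease and a large increase. Its sign was not stable, the value being 1.34 without wt pool 1 (edgeR adjusted p = 0.196) and 0.32 with limma-voom on all 6 pools (adjusted p = 0.899).

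Fabp6 gave the largest difference of the set, and its groups only just separated. Fabp6 (ENSMUSG00000020405, chr11:43596049-43601540), the cytosolic ileal bile acid binding protein, had 31.7, 39.8 and 18.6 CPM in labelled Rbm47-IKO pools 1, 2 and 3. In wt pools 1, 2 and 3 it had 17.2, 3.98 and 2.55 CPM. Every labelled Rbm47-IKO pool was above every wt pool, but the lowest of the former and the highest of the latter differed by less than either group's SD (10.7 and 8.10 CPM). The fold was 3.80 (95% interval 1.28 to 11.3), a log2 fold change of 1.93 with SE 0.67 that did not pass the threshold (edgeR adjusted p = 0.201). Whether Fabp6 passed the threshold depended on wt pool 1. Without it the log2 fold change was 3.20 and the edgeR adjusted p = 0.0212, and over the 6 fits that leave out 1 pool the adjusted p ran from 0.0212 to 0.535. The same fit without wt pool 1 called 335 of 16917 genes (1.98%).

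Fabp6 and Slc10a2 are carrier and transporter of the same cells, yet their proportion was not constant. Per length, Fabp6 was 6.26, 17.3 and 4.32 times Slc10a2 in labelled Rbm47-IKO pools 1, 2 and 3 and 1.32, 3.98 and 1.23 times Slc10a2 in wt pools 1, 2 and 3. The labelled Rbm47-IKO pools all had the higher ratio, the nearest values being 4.32 and 3.98. In both genotypes pool 2 had the highest ratio and the lowest Slc10a2. This ratio was formed after the values were seen and is a description.

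The mean levels of the exporter subunits were higher in the pools labelled Rbm47-IKO by similar folds, but neither difference passed the edgeR threshold. Slc51a (ENSMUSG00000035699, chr16:32475522-32487879), the larger subunit, had 443.7, 479.7 and 370.9 CPM in labelled Rbm47-IKO pools 1, 2 and 3 and 323.9, 259.0 and 261.4 CPM in the wt pools. The groups did not overlap. The fold was 1.53 (95% interval 1.21 to 1.94; log2 fold change 0.62, SE 0.15), and the edgeR adjusted p of 0.0740 missed the threshold. Slc51b (ENSMUSG00000053862, chr9:65412753-65422773), the smaller subunit needed for its partner to reach the membrane, had 73.5, 88.6 and 52.4 CPM against 53.2, 43.9 and 40.3 CPM. Labelled Rbm47-IKO pool 3 lay just under wt pool 1, the 1 pair of pools out of order. The fold was 1.56 (95% interval 1.13 to 2.16; log2 fold change 0.64, SE 0.20, edgeR adjusted p = 0.153). The exons of Slc51b share 91 bases with Rasl12 on the other strand, and whether strand was used in counting is not given in the sources used here. DESeq2 called both subunits, Slc51a with an adjusted p = 0.00218 and Slc51b with an adjusted p = 0.0344, and with them 8.39% of the 14818 genes it tested.

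For the bile acid sensor itself the groups overlapped through wt pool 1. Nr1h4 (ENSMUSG00000047638, chr10:89454234-89533585), encoding FXR, had 45.0, 45.8 and 37.6 CPM in labelled Rbm47-IKO pools 1, 2 and 3. In wt pools 1, 2 and 3 it had 42.6, 25.7 and 18.1 CPM. Wt pool 1 lay within the range of the labelled Rbm47-IKO pools and the other wt pools below it. The log2 fold change was 0.57 (SE 0.28, 95% interval -0.08 to 1.23, edgeR adjusted p = 0.368). It was 0.96 without wt pool 1 and 0.33 without wt pool 3.

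Fgf15 and Nr0b2, the FXR targets that encode a hormone and a corepressor, were at low levels. Fgf15 (ENSMUSG00000031073, chr7:144896532-144900953), the ileal hormone, had 135, 75 and 32 counts in labelled Rbm47-IKO pools 1, 2 and 3 (3.90, 1.98 and 0.980 CPM) and 29, 18 and 62 counts in the wt pools (0.853, 0.474 and 1.70 CPM). The groups overlapped, and the highest wt pool for Fgf15 was pool 3, which had the lowest Fabp6. The log2 fold change was 1.18 (SE 0.61, 95% interval -0.25 to 2.60, edgeR adjusted p = 0.394). It was 0.55 without labelled Rbm47-IKO pool 1 and 1.79 without wt pool 3. Its exons share 478 bases with Gm26793 on the other strand. Nr0b2 (ENSMUSG00000037583, chr4:133553376-133556536), encoding the corepressor SHP, had 2, 1 and 0 counts in the pools labelled Rbm47-IKO and 4, 3 and 4 counts in wt pools. Every labelled Rbm47-IKO pool was below every wt pool, but the counts lie around the floor of 3 counts, so Nr0b2 was not tested and no fold is given. The same order held for 11.6% of all tested genes, a share that does not cover untested genes such as Nr0b2.

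Gpbar1 (ENSMUSG00000064272, chr1:74278550-74279624), the bile acid receptor of the cell surface, was close to the detection limit. It had 12, 11 and 15 counts in labelled Rbm47-IKO pools 1, 2 and 3 and 12, 23 and 10 counts in the wt pools. The groups overlapped fully (log2 fold change -0.18, SE 0.44, 95% interval -1.20 to 0.84, edgeR adjusted p = 0.910). Its sign turned without wt pool 2.

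**Figure D2:**
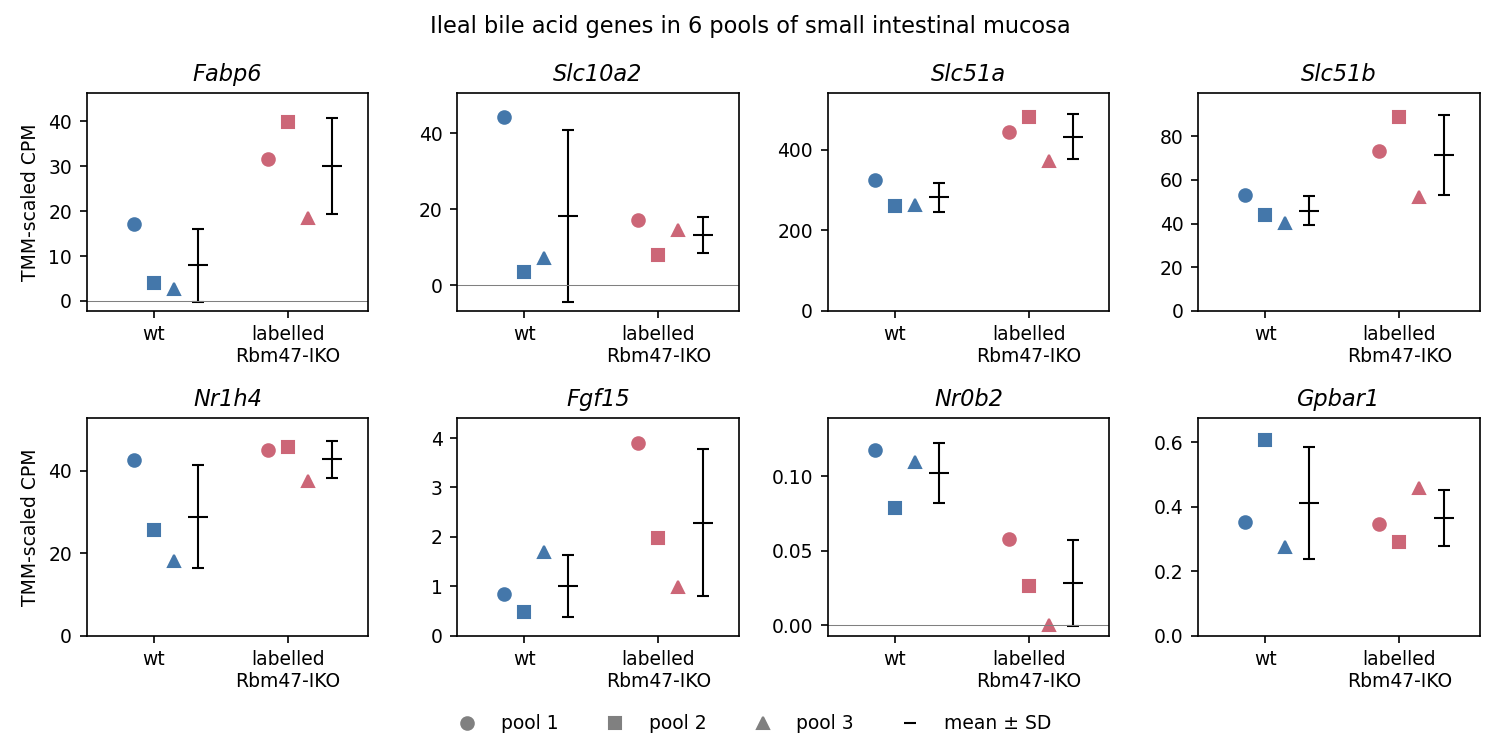
TMM-scaled CPM of the 8 genes in each pool (points, shape by pool number) with the mean and SD of the 3 pools (black). Only Fabp6 and Slc51a have every labelled Rbm47-IKO pool above every wt pool, and Nr0b2, at 0 to 4 counts and not tested, has every one below. Of all tested genes, 11.7% have every such pool above and 11.6% every one below.

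Taking the set as a whole, 0 of the 7 tested genes passed the edgeR threshold, where 2.7% of all tested genes did. At an unadjusted edgeR p under 0.05 there were 3 (Fabp6, Slc51a and Slc51b), against 16.8% of all tested genes. DESeq2 called 2 (Slc51a and Slc51b), against 8.39% of the 14818 genes it gave an adjusted p. Gpbar1 was not among those 14818 genes. Every labelled Rbm47-IKO pool was above every wt pool for Fabp6 and Slc51a, as for 11.7% of all tested genes. Every such pool was below for 0 of the 7, as for 11.6% of all tested genes. The log2 fold change was above 0 for 5 of the 7 and below 0 for Slc10a2 and Gpbar1, with a median of 0.62 beside -0.0059 over all tested genes. In whole mucosa more cells of a type and more RNA per cell cannot be told apart, and the ileal share of each pool was not measured.

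Within a genotype the carrier, the uptake transporter and Fgf15 differed most from pool to pool. Among the wt pools the highest and lowest were 2-fold or more apart for Fabp6 (6.75-fold), Slc10a2 (13.0-fold), Nr1h4 (2.35-fold), Fgf15 (3.59-fold) and Gpbar1 (2.21-fold), which is 5 of the 7, against 22.3% of all tested genes. Among the pools labelled Rbm47-IKO this held for Fabp6 (2.14-fold), Slc10a2 (2.20-fold) and Fgf15 (3.98-fold), against 17.2% of all tested genes. The exporter subunits were steadier, at 1.25-fold and 1.29-fold for Slc51a and 1.32-fold and 1.69-fold for Slc51b in wt and labelled Rbm47-IKO pools.

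Wt pool 1 was the highest wt pool for 5 of the 7 genes (Fabp6, Slc10a2, Slc51a, Slc51b and Nr1h4), and wt pool 3 the lowest for 4. Among the pools labelled Rbm47-IKO, pool 2 was the highest for 4 and pool 3 the lowest for 5. Over the 6 pools, as deviations of log2 CPM from the genotype mean, Fabp6 moved with Nr1h4 (r = 0.97), Slc51a (r = 0.89) and Slc10a2 (r = 0.72), and Slc51a moved with Slc51b (r = 0.94). The value for Slc10a2 came from the wt pools, since in labelled Rbm47-IKO pools 1, 2 and 3 Fabp6 deviated by 0.15, 0.47 and -0.62 and Slc10a2 by 0.46, -0.67 and 0.22. Slc10a2 followed the exporter subunits less closely (r = 0.51 with Slc51a and 0.21 with Slc51b). Fgf15 did not follow Fabp6 (r = 0.02). These values describe 6 points with 2 means removed. Pools also differed in muscle RNA, with wt pool 1 the lowest in summed smooth muscle genes and labelled Rbm47-IKO pool 3 the highest, and the part of this in the pool differences was not tested. Without the 2 pools richest in muscle RNA, labelled Rbm47-IKO pool 3 and wt pool 2, the log2 fold change was 1.86 for Fabp6 (edgeR adjusted p = 0.169) and 0.65 for Slc51a (adjusted p = 0.0913).

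**Figure D3:**
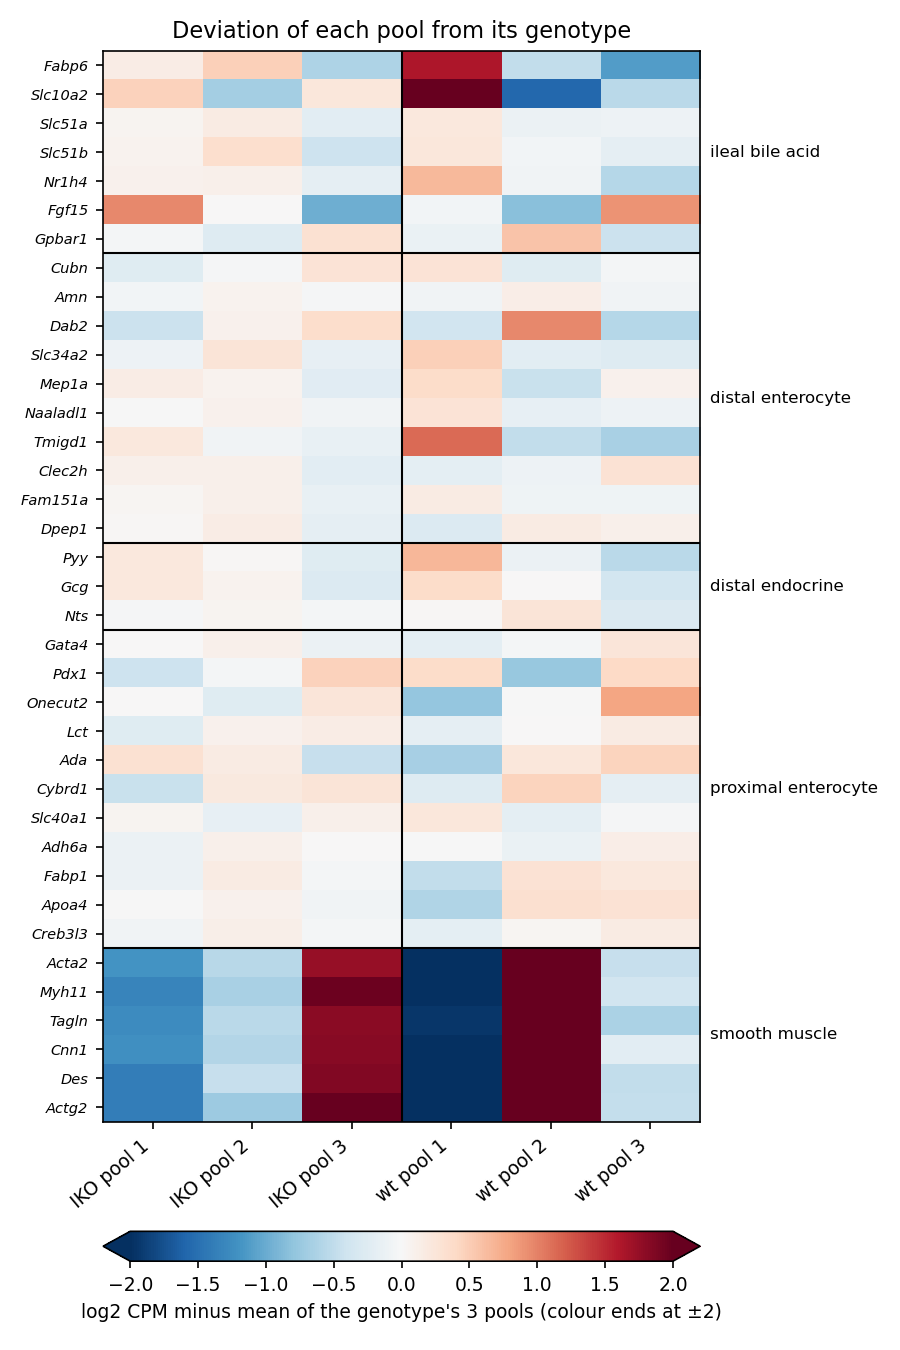
Deviation of each pool from the mean of its genotype (log2 CPM, colour) for the tested ileal bile acid genes, regional markers and smooth muscle genes. Wt pool 1 is raised for Fabp6, Slc10a2 and Nr1h4, the distal enterocyte genes lie on both sides of 0 there, and all 6 smooth muscle genes are highest in labelled Rbm47-IKO pool 3 and wt pool 2.

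Other genes that mark regions of the gut were read beside these pools. The counts for these lists and those of the other bile acid genes stand beside 2.7% of all tested genes called by edgeR, 16.8% at an unadjusted p under 0.05 and 8.39% called by DESeq2. Of 10 distal enterocyte genes, all tested, edgeR called 0 (3 at an unadjusted p under 0.05, Naaladl1, Amn and Dpep1; Naaladl1 and Amn also by DESeq2), with a median log2 fold change of 0.11. The most abundant were the peptidase gene Naaladl1 (2905, 3079 and 2770 CPM in labelled Rbm47-IKO pools against 2123, 1567 and 1640 CPM; log2 fold change 0.72, edgeR adjusted p = 0.0593), the lectin gene Clec2h (-0.03) and the cobalamin receptor gene Cubn (0.08). Tmigd1, named after its values were seen, had 151.5 CPM in wt pool 1 and 49.1 and 44.0 CPM in wt pools 2 and 3, and Clec2h had 1651, 1754 and 2296 CPM in the same pools. Wt pool 1 was the highest wt pool for 6 of the 10 distal enterocyte genes and the lowest for 2. Of the distal hormone genes, Pyy had 12.3, 7.09 and 5.30 CPM in wt pools 1, 2 and 3 and 8.55, 7.50 and 6.22 CPM in the pools labelled Rbm47-IKO. Gcg had 7.59, 5.88 and 4.53 CPM in the same wt pools, while Nts was highest in wt pool 2 at 44.4 CPM. None of the 3 tested was called by edgeR (Gcg and Nts at an unadjusted p under 0.05, Nts also by DESeq2), and their log2 fold changes were all below 0 (-0.15 for Pyy, -0.66 for Gcg and -0.49 for Nts). Insl5, the remaining hormone of that list, had 2 counts in wt pool 1 and 0 in the other pools.

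The proximal markers ranged from abundant to scarce. Of 11 proximal enterocyte genes edgeR called 0 (Gata4, Pdx1, Slc40a1 and Apoa4 at an unadjusted p under 0.05, Apoa4 also by DESeq2), with a median log2 fold change of 0.16. Pdx1 was the scarcest, at 0.578, 0.766 and 1.10 CPM in labelled Rbm47-IKO pools 1, 2 and 3. In wt pools 1, 2 and 3 it had 0.294, 0.105 and 0.302 CPM, from 10, 4 and 11 counts. Its log2 fold change was 1.79 (edgeR adjusted p = 0.110). Lactase (Lct) had 3374 to 4281 CPM in wt and 3669 to 4805 CPM in labelled Rbm47-IKO pools, and Fabp1, the fatty acid binding protein of the proximal gut, had 756.3 CPM in wt pool 1 and 1133 to 1377 CPM in the other 5 pools. Apoa4, an apolipoprotein of fat absorption, had 4295, 8088 and 7903 CPM in wt pools 1, 2 and 3 and 3198 to 3548 CPM in the pools labelled Rbm47-IKO (log2 fold change -1.01, edgeR adjusted p = 0.0802). Gata4, a jejunal transcription factor named after its values were seen, had 154.1 to 180.7 CPM in the pools labelled Rbm47-IKO and 108.3 to 146.9 CPM in wt pools (log2 fold change 0.42, edgeR adjusted p = 0.170). Wt pool 1 was the lowest wt pool for 8 of the 11 proximal genes and the highest for 1 (Slc40a1), and wt pool 3 was the highest for 7. Of 8 colon genes, Car1 and Hoxd13 had 0 counts in every pool, and edgeR called 0 of the 5 tested (Hoxb13 at an unadjusted p under 0.05 and by DESeq2), with a median log2 fold change of 0.24 and 5 of 5 above 0. Hoxb13 had 2.60, 3.54 and 5.18 CPM in labelled Rbm47-IKO pools 1, 2 and 3 and 0, 0.553 and 0.302 CPM in the wt pools (log2 fold change 3.69, edgeR adjusted p = 0.0708). Slc26a3 had 155.5 to 221.2 CPM and Car4 66.5 to 149.0 CPM over the 6 pools.

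Cell type markers gave the makeup of the samples. The summed level of 7 enterocyte genes was 39250 to 41430 CPM in pools labelled Rbm47-IKO and 41770 to 53420 CPM in wt pools. This gap lay in Apob (9864 to 10840 against 14900 to 22120 CPM), since the other 6 genes summed to 29340 to 31000 against 26870 to 31300 CPM. Of the 7 enterocyte genes 3 had a log2 fold change above 0, among them Anpep (0.52, edgeR adjusted p = 0.107). The other 4 lay below 0, among them Apob and Sis (-0.39 for Sis, edgeR adjusted p = 0.271). Of the 7, edgeR called 0 (Sis, Apob and Anpep at an unadjusted p under 0.05, Apob and Anpep also by DESeq2). Enteroendocrine genes summed to 121.2 to 133.2 against 161.4 to 208.4 CPM, and edgeR called 1 of 8, Ghrl, lower (log2 fold change -1.44, adjusted p = 0.0393), beside 2.7% of all tested genes. All 8 had a log2 fold change below 0 (median -0.66), with 5 at an unadjusted p under 0.05 (Chgb, Cck, Gip, Ghrl and Tph1; 16.8% of all tested genes) and 3 called by DESeq2 (Gip, Cck and Ghrl; 8.39% of all genes it tested). B cell and plasma cell genes summed to 56.6 to 112.7 against 94.9 to 153.1 CPM, with all 6 log2 fold changes below 0 (median -0.75) and 0 called by edgeR, by DESeq2 or at an unadjusted p under 0.05. Macrophage genes summed to 53.3 to 67.8 against 49.2 to 91.7 CPM. Liver and pancreas were nearly absent, with hepatocyte genes at 2.37 to 7.89 against 2.03 to 10.8 CPM. The highest hepatocyte sum was that of wt pool 1, where Alb had 178 counts against 3 to 16 in the other pools. Pancreatic acinar genes stood at 17.9 CPM in labelled Rbm47-IKO pool 3 and at 2.14 to 3.49 CPM in the other pools, with Amy2a5 at 0 in all 6. The part of cell makeup in the differences of Fabp6 and Slc51a was not tested.

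Among the other genes of bile acid handling, 3 of the 25 tested of 30 listed changed, 2 rising and 1 falling in the pools labelled Rbm47-IKO, where edgeR called 2.7% of all tested genes. At an unadjusted p under 0.05 there were 11 (16.8% of all tested genes), and DESeq2 called 7 (8.39% of all genes it tested; also Abcc2, Nr1i2, Cyp3a11 and Baat). The median log2 fold change was 0.03, but the parts of the list differed. For the 6 tested transporters the median was 0.33, with 5 above 0 and 1 below. For the 6 tested genes of synthesis and metabolism it was -0.66, with 2 above 0 and 4 below. Nuclear receptors and partners had -0.0012, and FGF15 release and reception had 0.08. Baat was lower in every pool labelled Rbm47-IKO than in any wt pool (-1.01, edgeR adjusted p = 0.0712). The same held for Nr1i2 (-0.55, edgeR adjusted p = 0.153). Abcc3, a basolateral exporter of conjugated organic anions including bile acids, rose from 85.9, 70.3 and 77.0 CPM in wt pools to 128.2, 164.0 and 133.4 CPM (log2 fold change 0.87, SE 0.13, edgeR adjusted p = 0.0221). Slc27a5, which activates bile acids for conjugation and is best known from liver, rose from 0.50, 0.316 and 0.467 CPM to 2.02, 1.85 and 1.35 CPM (2.02, SE 0.34, edgeR adjusted p = 0.0295). Its reads were few, at 17, 12 and 17 counts in the wt pools and 70, 70 and 44 in the pools labelled Rbm47-IKO. Ugt1a1, a glucuronosyltransferase, fell from 38.6, 40.5 and 45.2 CPM to 19.2, 25.9 and 23.5 CPM (-0.86, SE 0.14, edgeR adjusted p = 0.0256). Its exons share 1311 bases with each of 8 other Ugt1a genes and 922 with Gm20528 on the other strand, so its value is uncertain. When 1 pool was left out, Abcc3 and Ugt1a1 each passed the threshold in 2 of 6 fits and Slc27a5 in 0 of 6, with adjusted p of 0.0334 to 0.120, 0.0413 to 0.102 and 0.0528 to 0.181.

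None of the remaining bile acid genes was called by edgeR. Of 10 nuclear receptors and partners edgeR called 0 (Nr1i2, Vdr, Nr1h3 and Hnf4a at an unadjusted p under 0.05, Nr1i2 also by DESeq2; 16.8% and 8.39% of all genes by the same rules). Their 3 most abundant were Hnf4a (log2 fold change 0.43, edgeR adjusted p = 0.276), the vitamin D receptor Vdr (0.29, adjusted p = 0.273) and Rxra, the partner of FXR (-0.0040, adjusted p = 0.994). Of the apical exporters, Abcc2 had 829.3 to 948.9 CPM in pools labelled Rbm47-IKO and 537.4 to 753.1 CPM in wt (0.57, edgeR adjusted p = 0.120), and Abcg2 gave 0.26 (adjusted p = 0.377). For FGF15 release and reception edgeR called 0 of 3, as did DESeq2, with 0 at an unadjusted p under 0.05. Malrd1, known to promote FGF15 production, had 46.1 to 56.3 CPM over the 6 pools (0.08, edgeR adjusted p = 0.804), and the receptor Fgfr4 and its partner Klb had at most 1.44 and 0.471 CPM. In synthesis and metabolism, Cyp3a11 had 189.4 to 307.1 CPM against 415.6 to 500.2 CPM in wt (-0.80, edgeR adjusted p = 0.0721), and Cyp27a1 gave -0.52 (adjusted p = 0.477). The hepatic enzymes Cyp7a1 and Cyp8b1 had at most 2 counts in any pool.

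**Figure D4:**
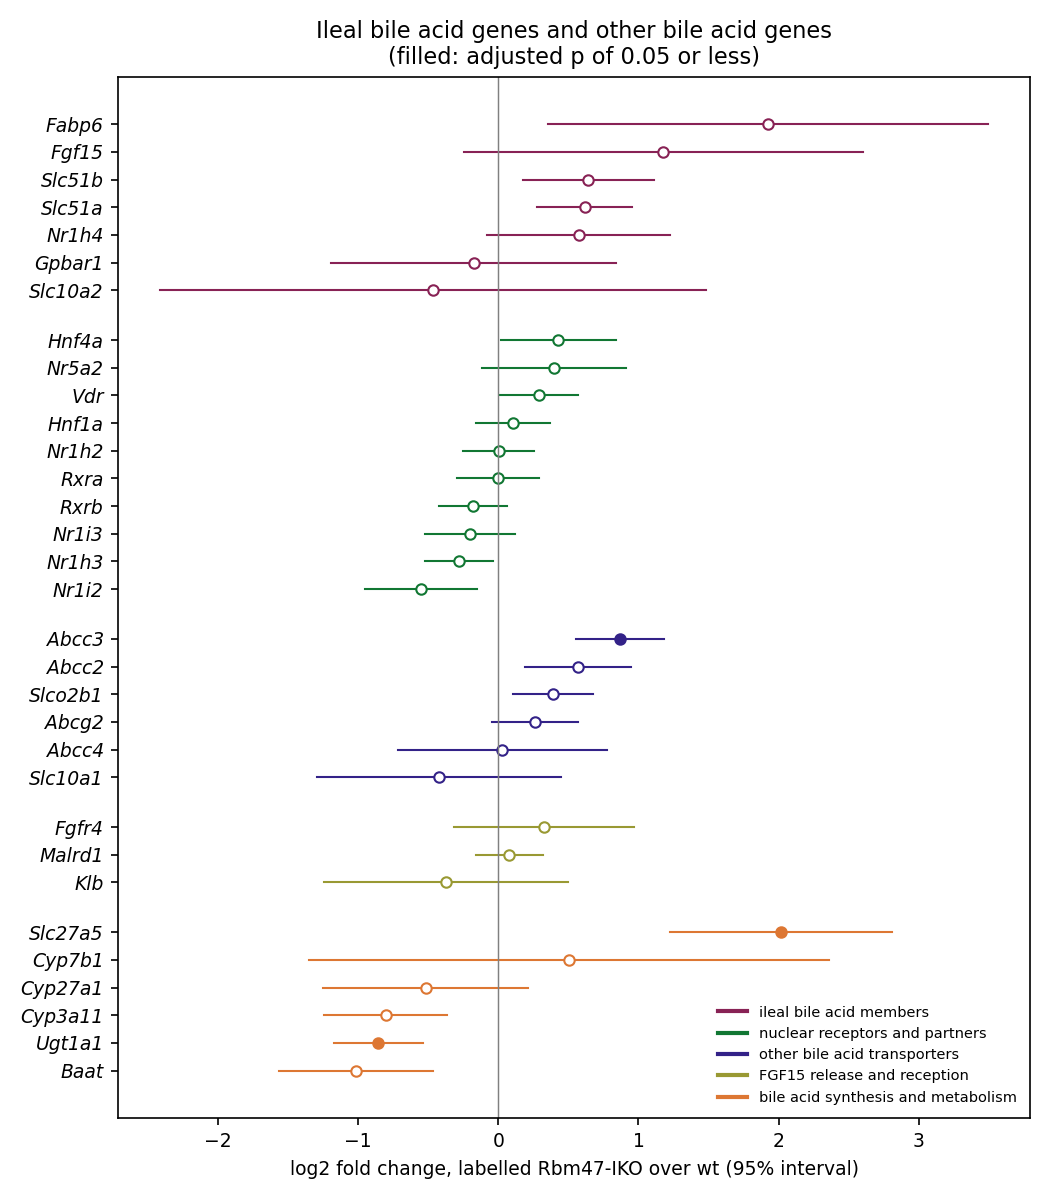
Log2 fold change of the pools labelled Rbm47-IKO over wt with its 95% interval for the 7 tested ileal bile acid genes and 25 other bile acid genes, grouped by role and filled where the edgeR adjusted p was 0.05 or less. Intervals of Fabp6, Slc51a and Slc51b lie above 0 without passing the adjusted threshold, and Abcc3, Slc27a5 and Ugt1a1 pass it.

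The genes most like 3 ileal markers were sought among 13489 tested genes with a mean of at least 1 CPM, by the Pearson r of deviations from the genotype mean over the 6 pools. Nearest Fabp6 was the serine protease gene Prss30 (r = 0.9994), with 206.5, 159.1 and 146.6 CPM in wt pools 1, 2 and 3 and 123.3, 129.3 and 113.5 CPM in the pools labelled Rbm47-IKO. Prss30 shared the order of pools within each genotype with Fabp6, but its log2 fold change was -0.48 (edgeR adjusted p = 0.139), opposite in sign. Lck, Mars, Adgrg5 and Neil3 followed. Nearest Slc10a2 were Gm15890, Csrnp2, ENSMUSG00000001379, Ube2n and Aebp2, and among the nearest to Fgf15 were Vps33a, Zfp143, Hpgds and Wtap. With 6 points, high r values are found among so many genes for almost any pattern, and the lists describe these pools only.

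The fits that leave out 1 pool show which genes depended on single pools. Slc51a stayed between 0.53 and 0.73 (edgeR adjusted p 0.0645 to 0.335) and Slc51b between 0.46 and 0.83, whereas Fabp6 ran from 1.51 to 3.20 and Slc10a2 from -0.96 to 1.34. Both of the latter took their highest value without wt pool 1.

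**Figure D5:**
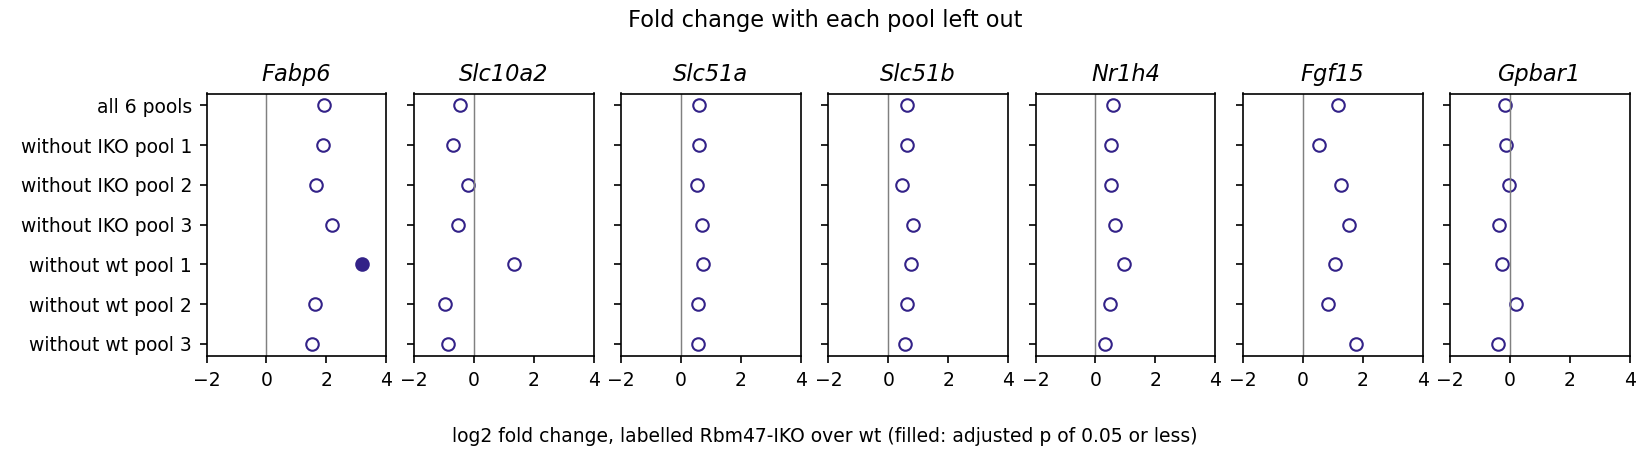
Log2 fold change of the 7 tested genes with all 6 pools and with each pool left out, filled where the edgeR adjusted p was 0.05 or less. Fabp6 passes the threshold only without wt pool 1, the same pool whose removal takes Slc10a2 above 0.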

How the data were processed

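RNA pools of small intestinal mucosa were sequenced after oligo(dT) selection on a HiSeq2000. The submitters' processing notes name STAR 2.5.1a, Subread and featureCounts 1.4.6-p5 with the build GRCm38. Use of strand is not given in the sources used here. For each pool the authors deposited the read count on 38561 Ensembl genes, not normalized. The CPM the authors deposited scale each count to the column total, and the RPKM the authors deposited divide that by gene length. Recomputing these columns gave the deposited values to rounding, and neither entered a test. A symbol was found for 36639 genes, and rows without one held 0.369% of the counts. No 2 pools were identical.

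Counts of the 6 pools (3 per group by label) were fitted together with edgeR 4.0.16 in R 4.3.3, with filterByExpr, TMM factors, genotype as the only term, the two-sided quasi-likelihood test and Benjamini-Hochberg adjustment over all 16425 genes passing the filter. Alternatives were DESeq2 1.42.0, limma-voom (limma 3.58.1), other scalings and filters, the pool number as a block and leaving out each pool, and 1 added after the data were seen, without the 2 pools richest in muscle RNA. Summaries used Python 3.11.15. CPM and RPKM in the text use TMM library sizes, and log2 CPM a prior count of 2. The fits were tested on simulated data. Each of the 8 genes was described in every pool. In each pathway or region list the genes past the threshold and the 3 with the highest mean CPM were named. Others were named outside this rule with their values known, among them Tmigd1, Gata4, Pdx1 and Hoxb13. Some genes this rule or the likeness rule would name are not reported here. These genes and lists were chosen with earlier results of these data known. Reads are not independent molecules, and the floor of 3 counts covers counting error only.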

Additional observations from a re-analysis of the deposited data

How the results depend on the processing

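The counts moved more than the fold changes. DESeq2 called 1243 genes and 2 of the ileal bile acid genes, where edgeR called 443 and 0. With the pool number as a block, 100 genes and 0 of the set were called, and Abcc3, Slc27a5 and Ugt1a1 no longer passed (edgeR adjusted p = 0.0808, 0.0813 and 0.0530). The numbers do not pair the pools (correlation of same-numbered pools 0.41, -0.0026 and -0.28), and not every pool correlated best with its own number. Leaving out 1 pool gave 0 to 431 called genes (0 without labelled Rbm47-IKO pool 2, 11 without wt pool 3, 32 without labelled Rbm47-IKO pool 1 and 119 without labelled Rbm47-IKO pool 3) and 0 to 1 of the set, the 1 being Fabp6 without wt pool 1. The other scalings and filters and limma-voom gave 383 to 614 called genes and 0 of the set. Fabp6, Slc51a, Slc51b, Nr1h4 and Fgf15 kept their direction in every fit run. Slc10a2 turned to 0.32 with limma-voom, 0.30 with the replicate block and 1.34 without wt pool 1 (range -0.96 to 1.34 when 1 pool was left out). Gpbar1 turned to 0.22 without wt pool 2 (range -0.39 to 0.22) and to 0.015 without the 2 pools richest in muscle RNA. The cause was not tested. Gpbar1, Nr0b2 and Fgf15 had the fewest reads, and depth limits what their values can show.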
